A study of Mus musculus with 24 samples.

Results

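CD8+ T cells were compared with CD4+FOXP3+ regulatory T (Treg) cells, both sorted from tumours 1 day after an antibody to PD-1, across all genes. The members were the 4 CD8 libraries and the 4 Treg libraries labelled anti-PD-1 in a bulk count table, 8 of the 24 libraries of the series. The tumours grew from B16F10-OVA, a melanoma line of the mouse with ovalbumin as model antigen, and each host was given 200 micrograms of antibody: anti-PD-1, anti-JAML or an isotype control. The tumours were taken 1 day later, fewer than 400 cells per library were sorted into lysis buffer, and polyadenylated RNA was amplified over the whole transcript by Smart-seq2. The 8 libraries share the tumour, the antibody and the day and differ in the sorted population, and the other 16 libraries (4 of each population under isotype and 4 of each after anti-JAML) served for reference. The labels give no mouse strain, age or sex, do not say how FOXP3 was read in the sort, and do not state whether 1 mouse or several gave the 4 libraries of a group. The p-values therefore rest on library-to-library spread, part of which may be technical.

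CD8+ T cells recognise peptides on MHC class I and kill target cells by releasing perforin and granzymes, by FASL and through interferon gamma. Treg cells are CD4+ T cells held in a suppressive state by the transcription factor FOXP3, and they restrain other T cells through CTLA-4, consumption of interleukin 2, interleukin 10 and adenosine. Both populations carry PD-1 in tumours, so both can be reached by the antibody given here. JAML is an adhesion molecule of the immunoglobulin superfamily that costimulates T cells.

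The 4 CD8 libraries held 15183290 to 18490887 counts and the 4 Treg libraries 11920543 to 16234577, and 14396 to 15356 genes against 14031 to 15162 genes had a count. Treg libraries 1 and 4 stood apart from the other 6 in transcripts of myeloid cells. The summed level of 23 macrophage and monocyte markers was 2120, 621, 381 and 2208 CPM (read counts scaled to a common library size) in Treg libraries 1 to 4 and 225 to 480 CPM in the CD8 libraries, with 1 of the 23 at 0 in every Treg library and 3 at 0 in every CD8 library. For 15 dendritic cell markers the range was 511 to 2346 CPM in Treg and 102 to 451 CPM in CD8 libraries, and for 10 melanoma markers 25.6 to 90.8 and 6.76 to 27.5 CPM. Treg library 1 also held 713 CPM of 7 erythroid markers, against at most 19.9 CPM in the other 7 libraries. The B cell gene Ms4a1 and the NK cell receptor gene Ncr1 were at 0 in all 8 libraries. The 10 B and plasma cell markers, Ms4a1 among them, still summed to 181 to 272.5 CPM in CD8 and 521 to 578.5 CPM in Treg libraries. For 10 T cell markers the sum was 9067 to 11180 CPM in CD8 and 9915 to 12970 CPM in Treg libraries. The part these other cells play in the gene differences was not tested, so the counts that follow are also given without Treg libraries 1 and 4 where that matters.

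The genes that define the sort followed the labels. Cd8a, the CD8 alpha chain, stood at 1790, 1601, 1518 and 1788 CPM in CD8 libraries 1 to 4 and at 0.0761, 0, 0 and 0.0572 CPM in Treg libraries 1 to 4. The Treg group thus held almost no Cd8a reads, and the ratio of depth-scaled counts was 49700 (95% counting interval 13800 to 410000). Cd4, the other coreceptor, was at 0, 0.116, 0 and 0 CPM in CD8 libraries and at 251, 443, 327 and 195 CPM in Treg libraries, a ratio of 9600 in the other direction (2660 to 79300). Foxp3 was at 0 in every CD8 library and at 40.6, 109, 92.5 and 76.1 CPM in Treg libraries, at least 1720-fold lower in CD8 cells against a floor of 3 counts over the group. Cd8b1, the CD8 beta chain, is the exception to this all-or-none pattern: it measured 1017, 812, 855 and 924 CPM in CD8 cells but also 12.3 to 37.4 CPM in the 4 Treg libraries, where Cd8a was near 0. Pdcd1, which encodes the antibody's target PD-1, measured 839, 1433, 616 and 1167 CPM in CD8 libraries and 621, 852, 1058 and 731 CPM in Treg libraries. The groups overlapped, and the difference did not pass (log2 fold change 0.31 ± 0.27 (SE), edgeR adjusted p = 0.530). In bulk RNA, fewer cells that make a transcript and less of it per cell cannot be told apart.

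Of 12193 genes tested, 442 (3.63%) were higher in CD8 cells and 513 (4.21%) were lower, at an adjusted p under 0.05 in edgeR's quasi-likelihood test. The genes lower in CD8 cells differed by more: their median log2 difference was 1.80, against 1.10 for the higher genes, and 458 of the 513 but 263 of the 442 exceeded a 2-fold difference. A total of 41 of the higher genes had no count in any Treg library, and 38 of the lower genes none in any CD8 library. For 1069 genes (8.77%) every CD8 library lay above every Treg library, and for 1065 (8.73%) every one lay below. How many genes passed depended on single libraries. The counts over all genes in fits without a library follow, as the base for list counts from the same fits. Without Treg library 1 the counts were 1108 higher and 792 lower, of 12746 genes tested. Without Treg libraries 1 and 4 they were 807 and 610, of 13431 genes tested. They were 424 and 489 without CD8 library 2. Without CD8 library 1, 3 or 4 they were 164, 222 or 145 higher and 243, 315 or 251 lower, and without Treg library 2, 3 or 4 they were 208, 217 or 199 higher and 249, 312 or 271 lower. None of the 955 genes called changed sign in any of these fits in which it was tested. These fits reuse libraries in which the genes were called, so a kept sign was likely beforehand and is no independent support.

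**Figure D1:**
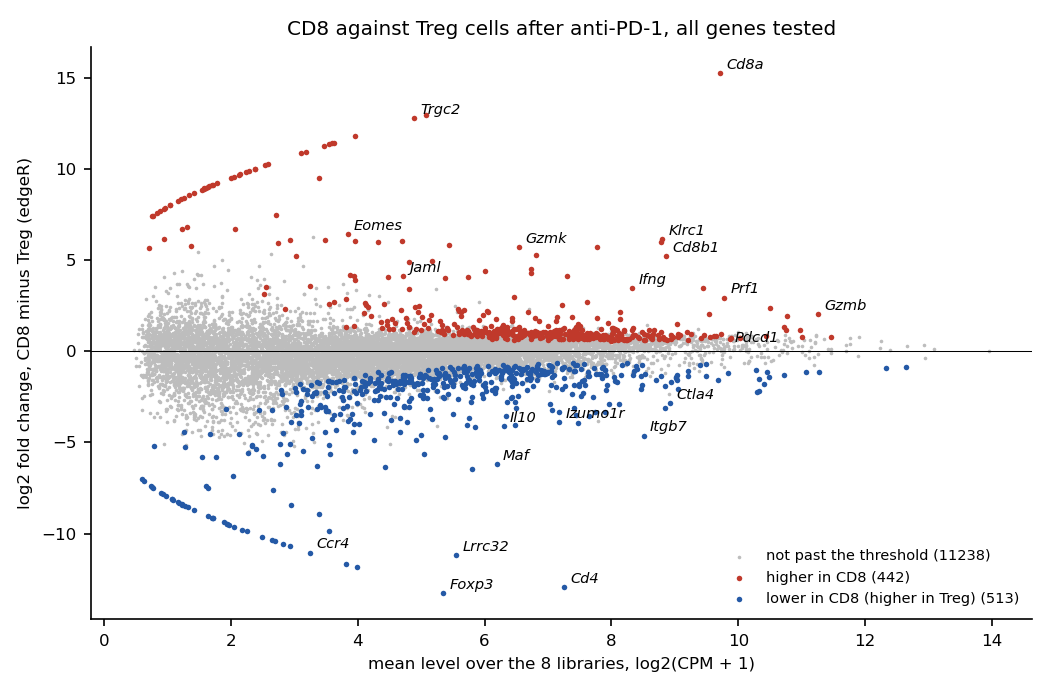
Each point is 1 of the 12193 genes tested: the horizontal axis is its mean level over the 8 anti-PD-1 libraries in log2(CPM + 1), the vertical axis its fitted log2 fold change of CD8 minus Treg cells, and colours mark the 442 genes higher and 513 lower in CD8 cells. Genes with no count in one group, such as Foxp3 and Trgc2, form the outer bands, where the fitted value depends on the fit's prior count.

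Of 12 CD8 coreceptor and lineage genes, a list that covers the coreceptor used in the sort, 8 were higher in CD8 cells and 1 was lower. The median log2 fold change was 2.09, against -0.05 over all genes tested. Eomes, a T-box factor of effector and memory CD8 cells, stood at 15.8, 33.3, 34.8 and 21.4 CPM in CD8 libraries and at 1.22, 0, 0 and 0 CPM in Treg libraries (log2 fold change 6.46 ± 1.27, edgeR adjusted p = 0.0152). Its only Treg reads came from library 1. Tbx21, the related factor T-bet, did not separate the groups, at 45.1, 141, 35.01 and 69.99 CPM against 42.8, 156, 142 and 60.6 CPM. Themis, a regulator of T-cell receptor signalling that is needed in thymic selection, was higher at 198 to 372 CPM against 48.8 to 95.3 CPM, and Crtam, an adhesion receptor of activated killer cells, at 18.2 to 60.8 CPM against 0.304 to 4.98 CPM. Ly6c2, a surface protein of effector and memory CD8 cells that monocytes also make, measured 881 to 1748 CPM in CD8 cells and 25.3 to 212 CPM in Treg cells. The member that went the other way was Cxcr3, a chemokine receptor of type 1 T cells, at 71.9, 72.4, 154 and 61.7 CPM in CD8 and 429, 396, 342 and 389 CPM in Treg libraries (log2 fold change -2.12 ± 0.29, edgeR adjusted p = 0.00287). All 4 Treg libraries lay above all 4 CD8 libraries for it.

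On the other side, 7 of 12 CD4 coreceptor and lineage genes were lower in CD8 cells and 0 were higher (median -2.33). This list, too, covers a coreceptor used in the sort. Zbtb7b, which encodes ThPOK, the factor that commits thymocytes to the CD4 lineage, was at 0.851 to 3.12 CPM in CD8 and 14.0 to 23.6 CPM in Treg libraries. Maf, a factor of interleukin 10 producing T cells, was at 0, 1.73, 0 and 6.08 CPM in CD8 libraries and at 190, 110, 106 and 162 CPM in Treg libraries (log2 fold change -6.18 ± 1.15, edgeR adjusted p = 0.0124). Rora, a nuclear receptor of tissue T cells, measured 20.3 to 25.8 CPM in CD8 and 95.6 to 198 CPM in Treg cells. Gata3, a factor shared by type 2 helper cells and tissue Treg cells, also passed, although its lowest Treg library (27.8 CPM) lay below its highest CD8 library (30.8 CPM).

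Cytotoxic granule genes were mostly on the CD8 side: of 19 tested, 10 were higher, 1 lower and 8 did not pass (median log2 fold change 2.05). Gzmb, the granzyme that starts apoptosis in target cells, stood at 3707, 4179, 3438 and 4369 CPM in CD8 libraries and at 819, 765, 1021 and 1179 CPM in Treg libraries. It was abundant in both populations and higher in CD8 cells (log2 fold change 2.05 ± 0.19, edgeR adjusted p = 4.13e-04). Gzmk, a granzyme of memory-like and pre-exhausted CD8 cells, separated the populations far more, at 205, 198, 203 and 116 CPM against 7.38, 2.77, 1.19 and 2.46 CPM (log2 fold change 5.71 ± 0.54, edgeR adjusted p = 4.17e-04). CD8 library 4 was low for it but still far above the Treg libraries. Prf1, the pore-forming perforin, was at 1271, 2659, 678 and 1590 CPM in CD8 libraries and at 74.9, 185, 403 and 133 CPM in Treg libraries. The groups did not overlap, but the range within each was wide.

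The granzyme genes of the cluster on chromosome 14 (mm10, Gzmb at chr14:56258838-56262260, Gzmc at chr14:56231441-56234656, Gzmf at chr14:56205263-56211417 and Gzme at chr14:56117626-56120625, all on the minus strand) shared the direction but not the level. In TPM, the authors' unit scaled for gene length, Gzmb measured 6432 ± 1396 (SD, n = 4) in CD8 cells, Gzmc 200.4 ± 207, Gzme 24.4 ± 13.3 and Gzmf 19.5 ± 17.9 TPM. Gzmc was at 97.4, 19.1, 15.3 and 174 CPM in CD8 libraries and at 4.41, 3.999, 8.92 and 1.20 CPM in Treg libraries, high in CD8 libraries 1 and 4. Gzme was at 19.1, 6.94, 9.58 and 4.44 CPM in CD8 libraries and at 0 in every Treg library, at least 191-fold higher. These neighbours are close in sequence, and how reads that fit several of them were counted is not given in the sources used here. Gzma, on chromosome 13 beside Gzmk, illustrates a call decided by 1 library: CD8 libraries held 97.9, 54.5, 100.5 and 55.9 CPM, Treg library 1 held 43.3 CPM and the other Treg libraries 1.61 to 7.21 CPM, and the difference did not pass (log2 fold change 2.50, edgeR adjusted p = 0.128), but did without Treg library 1 (4.41, edgeR adjusted p = 0.00363). Without Treg library 1, 16 of 21 granule genes tested were higher, and without Treg libraries 1 and 4 it was 13 of 21.

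Serpinb9, an inhibitor of granzyme B that shields the killer cell from its own granules, was at 403, 385, 471 and 573 CPM in CD8 libraries and at 139, 91.4, 84.5 and 92.4 CPM in Treg libraries (log2 fold change 2.16 ± 0.22, edgeR adjusted p = 6.48e-04). Of 9 serpins tested 3 were higher, 0 lower and 6 did not pass (median -0.05). Over all genes tested, 3.63% were higher and 4.21% lower. The other 2 serpins higher in CD8 cells were Serpinb6b and Serpine2, an extracellular protease inhibitor. Serpine2 stood at 206 to 384 CPM in CD8 and 6.38 to 33.6 CPM in Treg cells. Ctsw, the killer cell protease cathepsin W, and Cst7, the cathepsin inhibitor cystatin F, passed too, with ranges of 380 to 538 against 91.8 to 169 CPM and 476 to 812 against 275 to 477 CPM. The single granule gene lower in CD8 cells was Srgn, which encodes the proteoglycan serglycin on which granule proteins are stored, at 525 to 1001 CPM against 1628 to 3029 CPM. Fasl, the death ligand, was at 229, 283, 229 and 265 CPM in CD8 libraries and at 32.1, 30.6, 65.1 and 45.5 CPM in Treg libraries (log2 fold change 2.53 ± 0.26, edgeR adjusted p = 6.48e-04).

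Cytokine and chemokine genes split between the populations, with 4 of 20 tested higher in CD8 cells and 6 lower (median -0.91). Over all genes tested, 3.63% were higher and 4.21% lower. Ifng, which encodes interferon gamma, stood at 687, 615, 504 and 536 CPM in CD8 libraries and at 99.7, 41.2, 23.7 and 47.3 CPM in Treg libraries (log2 fold change 3.46 ± 0.40, edgeR adjusted p = 0.00123). Ccl3 and Ccl4, neighbouring chemokine genes on chromosome 11, were higher at 2031 to 2736 against 335 to 772 CPM and at 2138 to 2645 against 555 to 1592 CPM. They were among the most abundant transcripts in both populations, at 7345 ± 995 and 8574 ± 1422 TPM in CD8 cells and 1567 ± 385 and 3719 ± 1067 TPM in Treg cells. Spp1, which encodes osteopontin and is also a macrophage product, was at 1478, 527, 1707 and 1073 CPM in CD8 libraries and at 486, 73.1, 355 and 220 CPM in Treg libraries. For Spp1 the lowest CD8 library lay just above the highest Treg library.

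The secreted products lower in CD8 cells were of another kind. Il10, which encodes the suppressive cytokine interleukin 10, was at 8.25, 5.43, 18.5 and 1.82 CPM in CD8 libraries and at 82.7, 171, 140 and 195 CPM in Treg libraries (log2 fold change -4.11 ± 0.62, edgeR adjusted p = 0.00466). Areg, the tissue repair factor amphiregulin, was at 0 to 2.19 CPM against 22.4 to 44.6 CPM. Penk, the enkephalin precursor, was at 10.7 to 57.5 CPM in CD8 libraries and at 279, 121, 173 and 698 CPM in Treg libraries, high in library 4. Ltb, the membrane-bound lymphotoxin beta, and Il16, a ligand of CD4, were lower by less, at 202 to 338 against 525 to 858 CPM and 32.0 to 57.1 against 83.1 to 101 CPM. Tnf, unlike Ifng, was also lower in CD8 cells, at 4.38, 8.09, 3.19 and 10.46 CPM against 25.2, 18.5, 18.7 and 27.2 CPM (log2 fold change -1.78 ± 0.44, edgeR adjusted p = 0.0368). Il2 was too low to be tested, at no more than 1.57 CPM in any of the 8 libraries. Without CD8 library 1, or without Treg library 2 or 3, 2 genes of this list were higher and 4 lower.

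**Figure D2:**
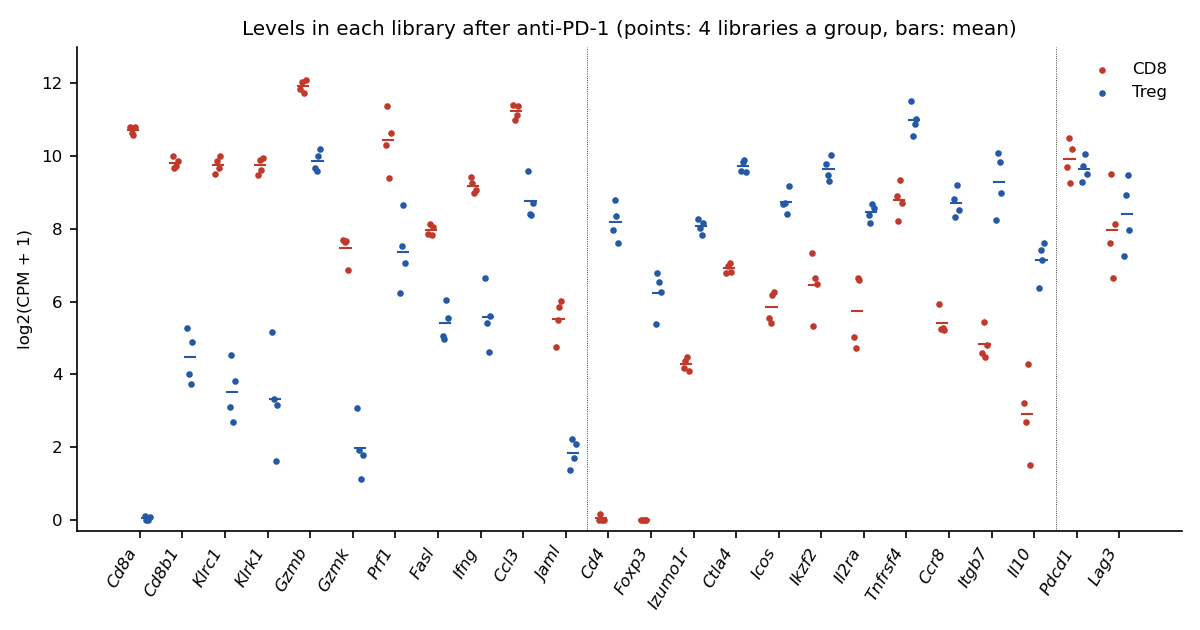
Levels of 24 genes in each library after anti-PD-1, in log2(CPM + 1): points are the 4 CD8 and the 4 Treg libraries and bars their means, with dotted lines between genes higher in CD8 cells, genes lower in CD8 cells and genes whose difference did not pass. Cd8a and Foxp3 are all or none, Gzmb is high in both populations, and Pdcd1 and Lag3 overlap.

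Of 16 receptor genes best known from NK cells, 10 were higher in CD8 cells and 1 was lower, and the median log2 fold change was 4.85. Klrc1, which encodes the inhibitory receptor NKG2A, was at 731, 935, 820 and 1020 CPM in CD8 libraries and at 7.53, 21.99, 5.43 and 13.04 CPM in Treg libraries (log2 fold change 6.18 ± 0.46, edgeR adjusted p = 1.18e-04). Klrk1, the activating receptor NKG2D, was at 714, 955, 790 and 996 CPM against 35.0, 8.92, 2.06 and 7.95 CPM. Their genes lie in the NK gene complex on chromosome 6 (mm10, Klrk1 at chr6:129610323-129623864 and Klrc1 at chr6:129666015-129678973, both on the minus strand), with Klrd1, which encodes CD94, the partner of NKG2A, and Klre1, an NK lectin-like receptor, between or beside them. Klrd1 stood at 456, 281, 455 and 514 CPM in CD8 libraries and at 27.4, 3.00, 0 and 1.54 CPM in Treg libraries. For both Klrk1 and Klrd1 the Treg library with the most reads was library 1.

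The Ly49 family receptors Klra3 and Klra7, from the same complex, were at 0 in every Treg library. Klra3 measured 12.6, 108, 73.0 and 69.5 CPM in the CD8 libraries (at least 1370-fold higher) and Klra7 8.25, 13.9, 50.3 and 16.4 CPM (at least 458-fold higher), and both belong to a family of near-identical copies, so reads may be split among them. Cd160, a receptor for HVEM, was at 140 to 308 CPM in CD8 and 1.15 to 10.2 CPM in Treg cells, Slamf7 at 92.4 to 130 against 16.9 to 30.7 CPM and Cd226, the activating counterpart of TIGIT, at 223 to 268 against 77.7 to 114 CPM. The exception was Klrg1, a marker of terminal effector CD8 cells and of mature Treg cells, which was at 14.0, 9.19, 12.1 and 4.86 CPM in CD8 libraries and at 129, 146, 196 and 193 CPM in Treg libraries (log2 fold change -4.06 ± 0.34, edgeR adjusted p = 2.46e-04). NK cells themselves, if present, were not visible through Ncr1, which had no count. Over 10 NK markers, which include Eomes, Gzma and Klre1 and genes shared with myeloid cells, the sum was 188 to 255 CPM in CD8 libraries and 254, 39.6, 3.81 and 231 CPM in Treg libraries 1 to 4.

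A pair of T-cell receptor gamma chain segments was also among the 15 genes with the smallest p on the CD8 side. Trgc2, a gamma constant segment (mm10, chr13:19304649-19307551, minus strand), was at 71.4, 35.96, 57.9 and 64.4 CPM in CD8 libraries and Trgv2, a gamma variable segment, at 31.6, 14.7, 25.6 and 18.5 CPM. Both were at 0 in every Treg library, at least 1120-fold and at least 440-fold higher in CD8 cells. Trdc, the delta constant segment that gamma-delta T cells need, was at 0, 0, 0.987 and 0 CPM in the same CD8 libraries, and at 0, 4.77, 0 and 2.29 CPM in Treg libraries. The other genes among those 15 were Atp8b4, a phospholipid flippase gene (168 to 245 against 8.67 to 12.8 CPM), Eno3, the muscle form of the glycolytic enzyme enolase (287 to 447 against 30.9 to 63.2 CPM), Adgrg5, an adhesion G protein coupled receptor at 0 in every Treg library (at least 587-fold), Gldc, the glycine decarboxylase (89.0 to 279 against 3.92 to 14.5 CPM) and Wdr95, at 13.1 to 28.4 CPM against 0 (at least 402-fold).

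Jaml, the target of the antibody that this series also tested, was higher in CD8 cells. It stood at 26.0, 44.5, 56.4 and 64.3 CPM in CD8 libraries and at 1.60, 3.69, 2.25 and 3.26 CPM in Treg libraries (log2 fold change 4.14 ± 0.42, edgeR adjusted p = 6.48e-04). Every CD8 library was above every Treg library, and every Treg library had reads. JAML has been linked to tissue-resident memory T cells. Of 19 residency genes tested, 2 (Jaml and Nr4a2) were higher in CD8 cells and 6 lower. Over all genes tested, 3.63% were higher and 4.21% lower. Without Treg library 1, 4 residency genes were higher. Itgae, which encodes CD103, the integrin that holds resident cells at epithelia, was one of the lower genes, at 1.39, 1.79, 2.38 and 0.669 CPM in CD8 libraries and at 16.1, 33.4, 14.9 and 17.5 CPM in Treg libraries (log2 fold change -3.71 ± 0.53, edgeR adjusted p = 0.00366). Cxcr6, a chemokine receptor of resident cells, and Cd69 did not pass, at 1094 to 1756 against 748 to 1113 CPM and at 136 to 386 against 151 to 335 CPM.

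Treg identity genes carried the counterpart of the cytotoxic program: 16 of 19 tested were lower in CD8 cells and 0 higher. The median log2 fold change was -3.12. The list covers Foxp3, one of the genes that define the sort. The count of lower genes was 14 to 17 when any 1 library was left out. Izumo1r, folate receptor 4, was at 17.2, 19.8, 21.1 and 16.2 CPM in CD8 libraries and at 308, 260, 226 and 284 CPM in Treg libraries (log2 fold change -3.86 ± 0.20, edgeR adjusted p = 6.08e-06). Both groups were tight, which gave it the smallest p on the Treg side after Cd4. Ikzf2 and Ikzf4, the zinc finger factors Helios and Eos that work with FOXP3, were at 39.2 to 161 against 636 to 1054 CPM and at 3.10 to 7.75 against 59.6 to 115 CPM. Il2ra, the high-affinity interleukin 2 receptor chain CD25, was at 31.6, 25.6, 98.8 and 96.1 CPM in CD8 libraries and at 335, 288, 410.1 and 379 CPM in Treg libraries, with CD8 libraries 3 and 4 higher than 1 and 2.

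Genes of the suppressive machinery followed, 8 of 15 lower in CD8 cells and 0 higher. Ctla4, which strips B7 costimulators from antigen-presenting cells, was at 109, 125, 132 and 112 CPM in CD8 libraries and at 775, 909, 954 and 749 CPM in Treg libraries (log2 fold change -2.83 ± 0.17, edgeR adjusted p = 2.03e-05). Lrrc32, which encodes GARP, the docking receptor for latent TGF beta, was at 0.146, 0, 0 and 0 CPM in CD8 libraries and at 17.4, 110, 183 and 57.5 CPM in Treg libraries, a ratio of depth-scaled counts of 3040 (841 to 25100). The Treg libraries differed widely in it, and the lowest was library 1. Ebi3, a subunit of interleukins 27 and 35, was at 0 to 1.28 against 35.6 to 45.5 CPM, Nt5e, the adenosine-forming enzyme CD73, at 1.53 to 13.01 against 43.1 to 136 CPM and Fgl2, a secreted suppressor, at 26.6 to 93.2 against 243 to 448 CPM. Entpd1, the CD39 enzyme that acts before CD73, did not pass, at 181 to 278 CPM in CD8 cells and 150 to 210 CPM in Treg cells, and neither did Tgfb1, at 4.02 to 17.2 against 10.5 to 18.3 CPM.

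Markers of Treg cells in tissues and tumours were lower in CD8 cells in 16 of 26 cases and higher in 0. Ccr8, the chemokine receptor that marks tumour Treg cells, was at 59.8, 37.1, 37.7 and 35.9 CPM in CD8 libraries and at 449, 317, 588 and 369 CPM in Treg libraries (log2 fold change -3.34 ± 0.27, edgeR adjusted p = 1.98e-04). Ncmap, a myelin-associated membrane protein gene, was at 0 in every CD8 library and at 12.1 to 36.2 CPM in Treg libraries (at least 568-fold lower). Pparg, a lipid-sensing nuclear receptor of tissue Treg cells that macrophages also use, was at 0, 0, 2.56 and 0 CPM against 26.3, 8.92, 52.1 and 26.9 CPM. Neb, the muscle protein gene nebulin, was at 14.3 to 41.3 CPM in CD8 and 123 to 187 CPM in Treg cells, and Il1r2, a decoy receptor for interleukin 1, at 43.1 to 155 against 272 to 590 CPM. Of the genes with the smallest p on the Treg side that no list held, Mxd1, a partner of MAX that opposes MYC, was at 22.1 to 30.7 CPM in CD8 libraries and at 149, 269, 271 and 265 CPM in Treg libraries, and H1f0, a linker histone of resting cells, at 19.3 to 21.6 against 103 to 194 CPM.

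**Figure D3:**
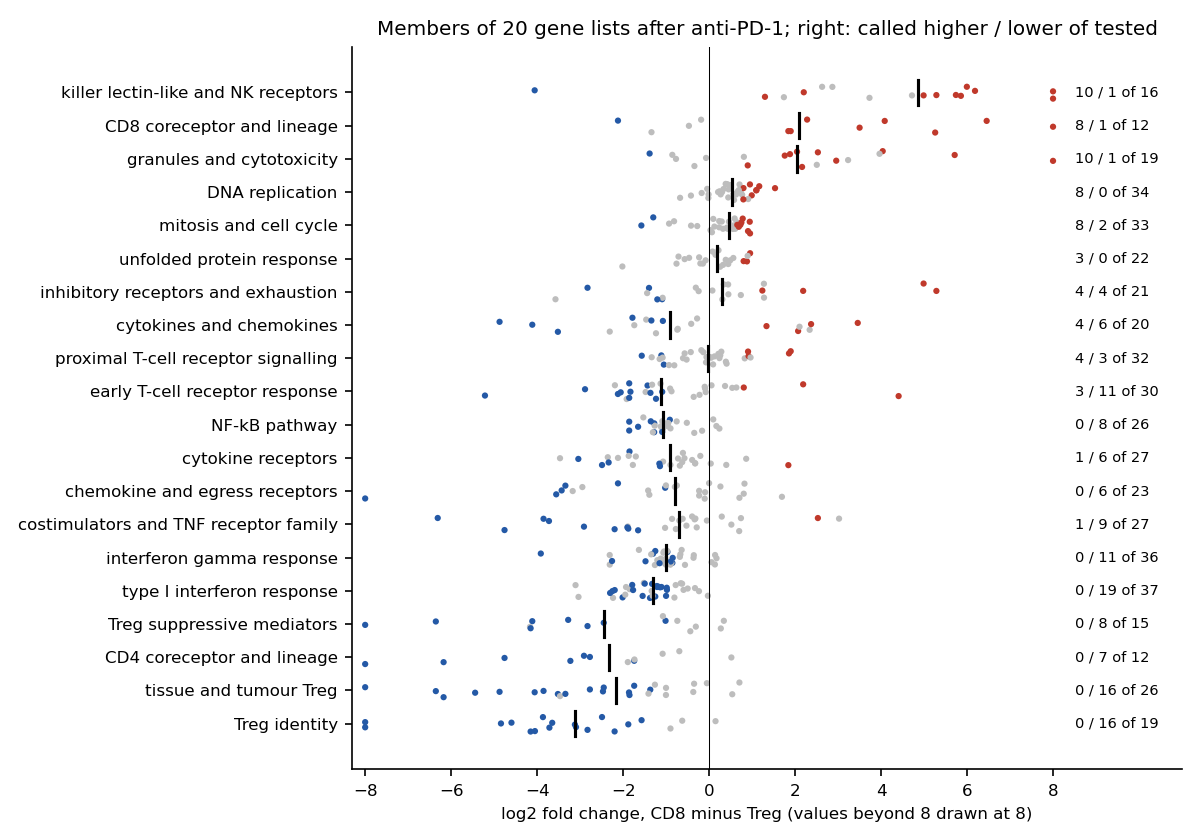
Log2 fold change of CD8 minus Treg cells after anti-PD-1 for each tested member of several gene lists. Points are genes, coloured where called higher or lower, with extreme values drawn at the edge, and vertical bars are list medians. The text at the right gives the members called higher and lower of those tested. Granule and NK receptor genes lie mostly to the right, with 10 of 19 and 10 of 16 called higher. Treg identity and type I interferon genes lie mostly to the left, with 16 of 19 and 19 of 37 called lower. For all genes tested, which are not drawn, 3.63% were called higher and 4.21% lower.

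Costimulators and TNF receptor family genes were mostly on the Treg side: of 27 tested, 9 were lower in CD8 cells and 1, Fasl, was higher. Over all genes tested, 4.21% were lower and 3.63% higher. Tnfrsf4 and Tnfrsf18, which encode the costimulators OX40 and GITR and lie side by side (mm10, chr4:156013843-156016612 and chr4:156026164-156028895, both on the plus strand), were at 481, 297, 645 and 419 CPM against 2938, 1507, 1898 and 2069 CPM and at 135 to 249 against 565 to 937 CPM. Tnfrsf4 reached 4057 ± 544 TPM in Treg cells and was still at 769.5 ± 179 TPM in CD8 cells. Icos, the costimulator of the CD28 family whose gene lies near Ctla4 on chromosome 1, was at 45.8, 41.5, 71.8 and 75.2 CPM in CD8 libraries and at 412, 422, 336 and 583 CPM in Treg libraries. Tnfrsf25, Tnfrsf8 and Tnfrsf13b, which encode DR3, CD30 and TACI, were at 0 to 0.547, 1.34 to 5.52 and 2.56 to 9.48 CPM in CD8 cells and at 9.80 to 30.3, 13.5 to 89.5 and 40.5 to 75.8 CPM in Treg cells. Tnfrsf9, which encodes the costimulator 4-1BB, did not pass, at 2477, 1696, 1944 and 2006 CPM in CD8 libraries and 2414, 1653, 2359 and 1954 CPM in Treg libraries.

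These receptors signal to NF-kB, and 8 of 26 genes of that pathway were lower in CD8 cells and 0 higher (median -1.08). Traf1, an adaptor of TNF receptors, was at 130, 122, 123 and 153 CPM in CD8 libraries and at 385, 422, 432 and 413 CPM in Treg libraries (log2 fold change -1.65 ± 0.16, edgeR adjusted p = 4.13e-04). The other genes lower in CD8 cells were the inhibitors Nfkbia, Nfkbie, Nfkbid and Tnfaip3, which are themselves induced by NF-kB, the ubiquitin ligases Birc2 and Birc3, and Relb, the subunit of the noncanonical branch. Nfkbia was at 346, 290, 443 and 438 CPM against 892, 590, 748 and 985 CPM, and Tnfaip3 at 68.5, 92.3, 52.2 and 78.8 CPM against 149, 302, 316 and 287 CPM. For both, the groups did not overlap. The count was 13 without Treg library 1, 4 without CD8 library 1 and 5 without Treg library 2, 3 or 4.

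Inhibitory receptors and genes linked to exhaustion went both ways, 4 of 21 higher and 4 lower, beside 3.63% and 4.21% of all genes tested. The genes higher in CD8 cells were Cd160, the nuclear receptor gene Nr4a2, the ectoenzyme gene Cd38 and Cd244a, which encodes the SLAM family receptor 2B4. Nr4a2 was at 148, 233, 134 and 155 CPM in CD8 libraries and at 33.3, 24.4, 41.5 and 46.9 CPM in Treg libraries. The genes lower in CD8 cells were Ctla4, Tigit, Vsir (VISTA) and Cd101. Tigit, an inhibitory receptor for CD155, was at 592, 638, 455 and 544 CPM against 1356, 1298, 1335 and 1123 CPM (log2 fold change -1.20 ± 0.17, edgeR adjusted p = 0.00271). Lag3, Havcr2 (TIM-3) and Tox, a factor of exhausted cells, did not pass: Lag3 measured 195, 725, 99.98 and 279 CPM against 152, 490, 713 and 248 CPM, Havcr2 115 to 402 against 63.3 to 146 CPM and Tox 190 to 405 against 158 to 218 CPM. The spread within each population, widest for Lag3, was as large as the gap between them. Without Treg library 2, 3 or 4 the counts were 3, 3 or 2 higher and 2 lower in each case, and without CD8 library 1 or 4 they were 2 higher and 3 or 2 lower.

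Chemokine receptors were lower in CD8 cells in 6 of 23 cases and higher in 0, where 4.21% and 3.63% of all genes tested were. Ccr2, the receptor for CCL2, was at 27.4, 46.1, 25.8 and 26.0 CPM in CD8 libraries and at 338, 393, 323 and 413 CPM in Treg libraries (log2 fold change -3.56 ± 0.24, edgeR adjusted p = 7.27e-05). Ccr4 was at 0 in every CD8 library and at 15.5, 24.6, 12.5 and 15.3 CPM in Treg libraries (at least 358-fold lower), and Ccr3 was at 0.697 to 4.44 against 11.8 to 26.9 CPM. With Ccr8 these genes lie on chromosome 9, where Ccr3 and Ccr2 are neighbours (mm10, chr9:124021972-124031689 and chr9:124101950-124113557, plus strand). Ccr2 is also a monocyte receptor, and the myeloid gene Lyz2 stood at 658, 112, 1.997 and 866 CPM in Treg libraries 1 to 4. The part of myeloid transcripts in the Ccr2 difference was not tested. The lymph node homing gene Ccr7 and the egress receptor gene S1pr1 did not pass, at 30.6 to 175 and 25.2 to 94.1 CPM in CD8 libraries and 24.4 to 81.0 and 70.2 to 93.4 CPM in Treg libraries, and CD8 library 3 was the highest of its group for both. Without CD8 library 3, 2 genes of this list were higher, and without Treg library 1 it was 1.

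Among 25 integrins and adhesion genes 2 were higher (Jaml and Cd226) and 5 lower in CD8 cells, where 3.63% and 4.21% of all genes tested were. Itgb7, the integrin beta 7 chain that pairs with CD103, was at 23.2, 42.1, 21.4 and 27.2 CPM in CD8 libraries and at 303, 1077, 908 and 502 CPM in Treg libraries (log2 fold change -4.62 ± 0.44, edgeR adjusted p = 4.17e-04). Cd44, the hyaluronan receptor of activated T cells, was at 28.6 to 59.0 CPM in CD8 and 115 to 129 CPM in Treg cells. The lower count was 3 without CD8 library 1 or 4 and 9 without Treg library 1.

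Of 27 cytokine receptor genes, 6 were lower in CD8 cells and 1 was higher, where 4.21% and 3.63% of all genes tested were. The higher one was Il18rap, a chain of the interleukin 18 receptor (122 to 241 against 40.1 to 55.8 CPM). Apart from Il2ra, the lower genes included Ifngr1, a chain of the interferon gamma receptor, at 840, 717, 1075 and 857 CPM in CD8 libraries and 2012, 1810, 1915 and 2010 CPM in Treg libraries (log2 fold change -1.16 ± 0.17, edgeR adjusted p = 0.00407). Il2rb, the shared beta chain of the interleukin 2 and 15 receptors, and Il7r did not pass, at 370 to 1652 against 558 to 2034 CPM and 20.8 to 110 against 43.0 to 80.1 CPM. Without CD8 library 1 or Treg library 4, 3 cytokine receptor genes were lower. Downstream, 7 of 21 JAK-STAT genes were lower and 1 higher, beside 4.21% and 3.63% of all genes tested. Cish and Socs2, feedback inhibitors induced by STAT5, were at 14.2, 15.9, 3.25 and 40.6 CPM against 133, 192, 115 and 199 CPM and at 0 to 6.10 against 29.8 to 92.3 CPM. The kinases Pim1 and Pim2, also STAT targets, went opposite ways, Pim1 at 15.96 to 30.9 against 46.7 to 85.3 CPM and Pim2 at 72.4 to 136 against 6.92 to 32.1 CPM. Without CD8 library 1, 2 JAK-STAT genes were lower. Without CD8 library 4 or Treg library 2 it was 4, and without Treg library 4 it was 3.

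Immediate early genes of the T-cell receptor response were lower in CD8 cells in 11 of 30 cases and higher in 3 (median -1.11). Of 32 proximal signalling genes 4 were higher and 3 lower (median -0.02). Over all genes tested, 3.63% were higher and 4.21% lower. The proximal genes lower were 0 without CD8 library 1 or 3 or Treg library 2 or 3, 1 without CD8 library 4 or Treg library 4, and 5 without Treg library 1 or without Treg libraries 1 and 4, and the higher ones were 2 without CD8 library 2 or 4 or Treg library 2 or 3. Zfp36l1 and Zfp36, which encode proteins that bring about decay of cytokine mRNA, were at 57.8, 83.2, 59.7 and 64.3 CPM against 336, 425, 667 and 523 CPM and at 42.8 to 78.9 against 170 to 227 CPM. Dusp1, a phosphatase that turns off MAP kinases, was at 150, 244, 177 and 251 CPM in CD8 libraries and at 750, 759, 920 and 971 CPM in Treg libraries (log2 fold change -2.06 ± 0.21, edgeR adjusted p = 6.48e-04). A pair of related orphan nuclear receptors went in opposite directions: Nr4a1 was at 34.9, 57.7, 27.9 and 31.2 CPM in CD8 and 77.9, 159, 227 and 194 CPM in Treg libraries (log2 fold change -2.12 ± 0.35, edgeR adjusted p = 0.00718), whereas Nr4a2 was higher in CD8 cells. Egr1, Egr3 and Junb, DNA-binding factors of the same response, were lower, and Myc was higher at 257 to 320 against 145 to 173 CPM. Spry2 and Spry1, paired inhibitors of receptor signalling, were also split, Spry2 at 65.3 to 154 against 0 to 10.7 CPM and Spry1 at 7.89 to 15.7 against 23.2 to 39.9 CPM. Without Treg library 1, 15 genes of the early response were lower, and without CD8 library 1 it was 7.

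Interferon-stimulated genes were on the Treg side. Of 37 genes of the type I interferon response, all tested, 19 were lower in CD8 cells, 0 were higher and 18 did not pass, all 37 had a negative log2 fold change, and the median was -1.31. Type I interferons act through a complex that includes STAT2 and IRF9 and binds paired GAAA repeats (the interferon-stimulated response element) in promoters. These repeats are shown in the 120 bases before the start of 5 of these genes, chosen after their values were seen and taken from RefSeq on GRCm38.p6 (the assembly of mm10), on the gene's strand, with matches to GAAA, any 2 bases, GAAA, or to its reverse complement (TTTC, any 2 bases, TTTC), in capitals. The windows are chr19:34640769-34640888 (plus) for Ifit1, chr4:156200819-156200938 (minus) for Isg15, chr5:120907526-120907645 (minus) for Oas1a, chr11:83020811-83020930 (minus) for Slfn8 and chr7:104465194-104465313 (minus) for Trim30a.
Ifit1: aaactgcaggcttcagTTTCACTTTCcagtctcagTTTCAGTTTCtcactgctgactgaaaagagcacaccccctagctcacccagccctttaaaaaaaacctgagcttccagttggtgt
Isg15: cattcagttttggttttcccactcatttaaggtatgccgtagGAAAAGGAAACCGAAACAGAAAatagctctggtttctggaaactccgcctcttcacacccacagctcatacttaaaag
Oas1a: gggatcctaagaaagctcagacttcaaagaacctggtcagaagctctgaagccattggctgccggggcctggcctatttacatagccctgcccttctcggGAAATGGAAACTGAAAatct
Slfn8: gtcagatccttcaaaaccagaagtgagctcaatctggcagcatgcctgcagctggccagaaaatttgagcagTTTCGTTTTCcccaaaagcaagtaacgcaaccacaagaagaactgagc
Trim30a: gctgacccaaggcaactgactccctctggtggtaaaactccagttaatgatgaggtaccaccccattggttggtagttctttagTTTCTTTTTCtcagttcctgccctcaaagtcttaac

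Searched on both strands over 250 bases before to 50 bases after each start, with overlapping matches allowed, the motif was in 15 of the 27 genes of the list that have a window (55.6%). It was in 1131 of all 32851 promoter windows (3.44%), in 358 of 8957 tested genes with a window (4.0%), in 38 of 387 genes lower in CD8 cells (9.82%) and in 11 of 346 genes higher (3.18%). Within the list, 9 of 15 genes called lower and 6 of 12 not called held it. A match describes these letters only and is neither a binding site nor a cause.

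Of the genes whose promoters are shown, Ifit1, an inhibitor of viral translation, was at 35.0, 36.6, 64.6 and 47.2 CPM in CD8 libraries and at 179, 91.5, 108 and 137 CPM in Treg libraries (log2 fold change -1.50 ± 0.28, edgeR adjusted p = 0.0131). Oas1a, a sensor of double-stranded RNA, was at 29.6, 17.05, 37.2 and 28.5 CPM against 125, 112, 64.1 and 150 CPM. Slfn8 and Trim30a were at 37.5 to 57.8 against 70.6 to 138 CPM and at 58.1 to 93.8 against 125 to 222 CPM, and the groups overlapped for none of these. Isg15, a ubiquitin-like modifier, passed narrowly (edgeR adjusted p = 0.0495) at 6.35, 2.72, 6.50 and 2.62 CPM against 9.36, 44.7, 14.7 and 14.5 CPM, with Treg library 2 far above the rest. The factors of the pathway itself were lower too: Irf7 at 103 to 124 against 213 to 362 CPM and Irf9 at 93.6 to 122 against 194 to 261 CPM. The smallest p in the list belonged to Isg20, an exonuclease, at 82.7, 56.6, 48.3 and 64.3 CPM against 358, 309, 277 and 292 CPM (log2 fold change -2.30 ± 0.21, edgeR adjusted p = 3.23e-04). Ifi27l2a was the most abundant, at 325 to 604 against 1283 to 2876 CPM.

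The mean of the 37 genes, in log2(CPM + 1), was 4.99 ± 0.15 (SD, n = 4) in CD8 and 6.29 ± 0.30 in Treg libraries after anti-PD-1. The same mean was 3.99 ± 0.23 and 5.72 ± 0.14 under isotype, and 4.59 ± 0.35 and 5.79 ± 0.21 after anti-JAML, so that in each of the 3 arms all 4 CD8 libraries lay below all 4 Treg libraries. In the isotype and anti-JAML libraries 20 of 37 and 8 of 36 of these genes were lower and 0 higher. After anti-PD-1 the count was 16 without Treg libraries 1 and 4, 21 without Treg library 1, 9 without Treg library 2 or 4, and 10, 14 and 11 without CD8 libraries 1, 3 and 4.

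**Figure D4:**
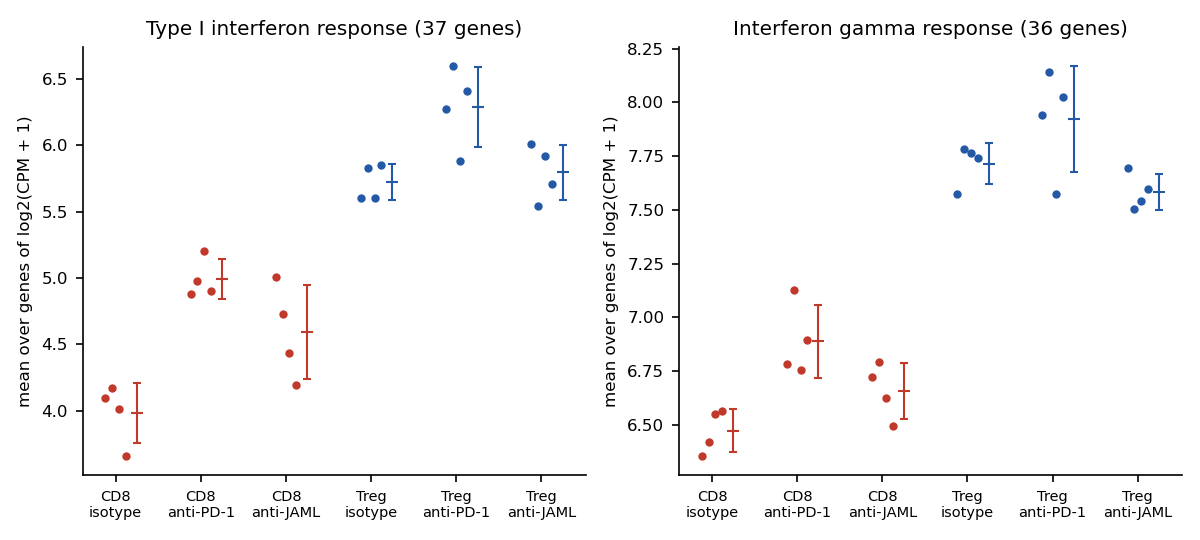
Mean level of 37 type I interferon response genes (left) and 36 interferon gamma response genes (right) in each of the 24 libraries, in log2(CPM + 1). Libraries are grouped by population and antibody. Points are libraries, and bars are the mean and SD of 4. For the type I list the Treg libraries lie above the CD8 libraries of the same antibody in all 3 arms, at 6.29 against 4.99 after anti-PD-1.

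Genes of the response to interferon gamma, whose own transcript was higher in CD8 cells, were lower in CD8 cells in 11 of 36 cases and higher in 0 (median -1.01). Igtp, an immunity-related GTPase, was at 233, 312, 262 and 289 CPM in CD8 libraries and at 794, 896, 551 and 799 CPM in Treg libraries (log2 fold change -1.48 ± 0.20, edgeR adjusted p = 0.00218). Gbp4 and Gbp9, guanylate-binding proteins, and Irgm1 and Irgm2 of the same defence system were lower as well. The class I MHC heavy chains H2-K1 and H2-D1, which are near-identical in sequence and so uncertain one by one, were at 2944 to 4174 against 5802 to 7813 CPM and at 3680 to 5710 against 6707 to 9060 CPM. Myeloid cells make many of these transcripts too. Without Treg libraries 1 and 4, 10 of 37 of them were lower. Leaving out 1 library gave 3 (CD8 library 1 or Treg library 2) to 17 (CD8 library 2), with 5 and 4 without CD8 library 3 or 4, 4 without Treg library 4 and 16 without Treg library 1.

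Some genes of proliferation were higher in CD8 cells, by small amounts. Of 34 DNA replication genes 8 were higher in CD8 cells and 0 lower (median 0.54). Of 33 mitosis and cell cycle genes 8 were higher and 2 lower (median 0.46). Over all genes tested, 3.63% were higher and 4.21% lower. Rpa2, a subunit of the single-strand binding protein RPA, was at 459, 425, 346 and 376 CPM in CD8 libraries and at 195, 196, 194 and 160 CPM in Treg libraries (log2 fold change 1.10 ± 0.16, edgeR adjusted p = 0.00411). Cdk1, the kinase that drives entry into mitosis, was at 368, 299.8, 322 and 370 CPM against 190, 154, 204 and 152 CPM. The replication factor gene Rfc5 and Dut, which keeps uracil out of DNA, were also higher. The 2 lower genes are known for other roles than driving mitosis: Cdkn1b encodes the cell cycle inhibitor p27 and Ccnd2 the G1 cyclin D2 (150 to 222 against 428 to 504 CPM). Mki67, the proliferation antigen, did not pass, at 96.2 to 123 CPM in CD8 and 128 to 171 CPM in Treg libraries. Every CD8 library lay below every Treg library for it, against the direction of most of the list. Of the mitosis genes, 14 had every CD8 library above every Treg library and 3 had every one below. Over all genes tested it was 8.77% and 8.73%. The counts of called genes depended on the fit. Under upper-quartile scaling 2 mitosis genes were higher and 2 lower, where 357 and 503 of 12193 genes tested were. With no filter 4 mitosis genes were higher, where 344 of 21792 genes tested were. With all 24 libraries in 1 fit, 2 mitosis genes were higher and 2 lower, and 2 replication genes were higher. That fit called 741 genes, 48.2% of them higher. The counts of called genes also rested on single libraries. Without CD8 library 1, 3 or 4 or Treg library 2 or 4, 1 mitosis gene was higher. It was 2 without Treg library 3 and 12 without Treg library 1. For replication genes it was 4 without CD8 library 1 or 4 or Treg library 2, 3 or 4. It was 5 without CD8 library 3 and 13 without Treg library 1.

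Survival genes were split, 4 of 25 higher and 4 lower beside 3.63% and 4.21% of all genes tested, and members of the BCL2 family were on both sides. The lower count was 1 without CD8 library 1 or 4 or Treg library 2 or 4 and 2 without CD8 library 2 or 3, Treg library 3, or Treg libraries 1 and 4, and the higher count was 2 without CD8 library 1 or Treg library 2. Bcl2 was at 24.2, 38.6, 82.6 and 50.4 CPM in CD8 libraries and at 6.77, 9.84, 8.17 and 10.9 CPM in Treg libraries (log2 fold change 2.45 ± 0.40, edgeR adjusted p = 0.00660). Bcl2l1, which encodes the related survival protein BCL-XL, was at 10.1, 24.05, 9.35 and 11.9 CPM against 70.6, 95.0, 118 and 96.2 CPM (log2 fold change -2.78 ± 0.35, edgeR adjusted p = 0.00177). Bcl2l11, the death-promoting BIM, was higher in CD8 cells at 23.8 to 45.3 against 2.13 to 10.4 CPM. In metabolism, 1 of 26 glycolysis and hypoxia genes was higher (Eno3), where 3.63% of all genes tested were, and 3 were lower, where 4.21% were. Among those lower were Hif1a, the oxygen-sensing factor (180 to 337 against 537 to 907 CPM), and Aldoc, an aldolase (15.6 to 27.2 against 74.9 to 134 CPM). The lower count was 5 without Treg library 1 and 6 without Treg libraries 1 and 4. Of 22 unfolded protein response genes 3 were higher (Creld2, Sdf2l1 and Pdia6) and 0 lower, beside 3.63% and 4.21% of all genes tested. However, 0 were higher without CD8 library 1 or 4 or Treg library 2, and 1 without Treg library 4.

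Cytosolic ribosomal protein genes were taken by a name pattern, which matched 396 gene rows, 149 of them tested. Pseudogene copies that match it were not removed and may share reads with their parent genes, so the rows are not that many separate genes. The log2 fold change was positive in 143 of the 149 rows, with a median of 0.75. Only 1 row passed, and that was Rps6kb1, the S6 kinase gene caught by the name pattern. The share of all counts in rows with ribosomal protein names was 7.09% ± 1.85 (SD, n = 4) in CD8 and 4.68% ± 1.54 in Treg libraries, a difference that did not pass an exact two-sided permutation test (p = 0.143, smallest possible 0.0286). Without Treg library 1, 42 of 153 rows of the pattern were higher and 1 lower.

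The same contrast was fitted in the isotype and the anti-JAML libraries, which share no library with the anti-PD-1 groups. Of the 442 genes higher after anti-PD-1, 424 were tested under isotype, where 416 (98.1%) had the same sign and 285 were called. Those 285 are 64.5% of the anti-PD-1 calls and 29.7% of the 959 isotype calls (8.21% of 11680 genes tested). Of the 513 lower genes, 475 of 481 (98.8%) had the same sign and 320 were called, 62.4% of the anti-PD-1 calls and 38.5% of the 832 isotype calls (7.12%). One gene, Fam49a, named after its values were seen, was higher after anti-PD-1 (log2 fold change 1.12 ± 0.30, edgeR adjusted p = 0.0477) and lower under isotype (-0.84 ± 0.25, edgeR adjusted p = 0.0496), and the difference between these did not pass (edgeR adjusted p = 0.499). After anti-JAML, 402 of 413 and 470 of 489 had the same sign, and 56 and 112 were called, where 87 (0.728%) and 161 (1.35%) of 11950 genes were called in all. Across all genes tested in both, 76.8% (isotype) and 71.2% (anti-JAML) had the same sign, and Spearman's rho of the log2 fold changes was 0.66 over 11309 genes and 0.55 over 11412 genes, which are not independent replicates.

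**Figure D5:**
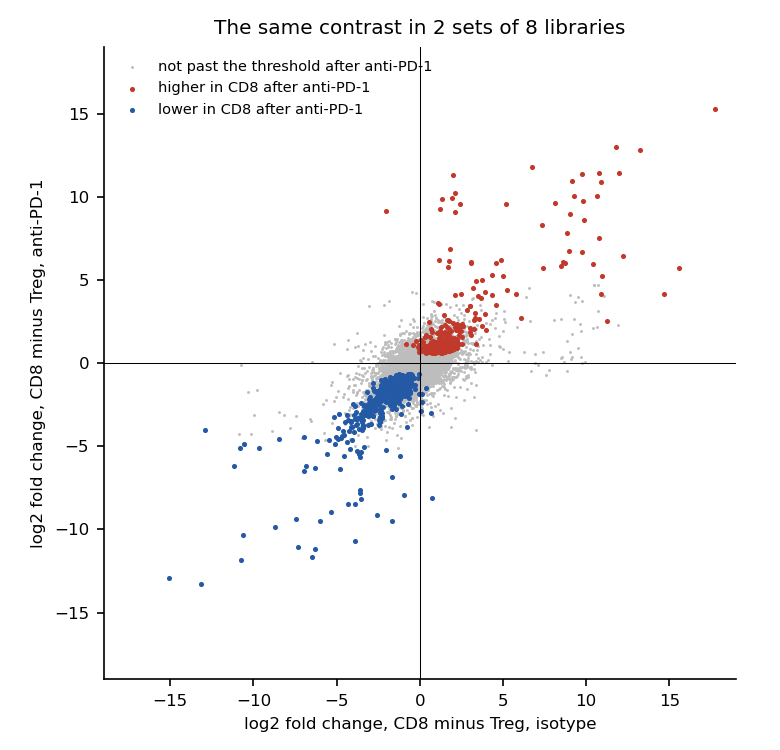
Log2 fold change of CD8 minus Treg cells under isotype (horizontal) and after anti-PD-1 (vertical) for each gene tested in both, from separate sets of 8 libraries; colours mark genes called after anti-PD-1. Called genes lie in the upper right and lower left of the plot, with 98.1% of the higher and 98.8% of the lower genes on the same side of 0.

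Whether the difference between the populations itself differed after anti-PD-1 was tested with interaction terms over all 24 libraries. None of 14591 genes passed against isotype (0.0%) and none against anti-JAML (0.0%) in edgeR, with 912 and 821 at an unadjusted p under 0.05. DESeq2 called 201 and 138 genes and limma voom 5 and 2 on the same terms. Against isotype, edgeR called 12 genes without isotype Treg library 4, 5 without isotype Treg library 1, 2 without anti-PD-1 Treg library 1 and 1 without isotype Treg library 2. The smallest p against isotype belonged to Kif2c, a microtubule-depolymerising kinesin of the centromere (difference of log2 fold changes -2.75 ± 0.48, edgeR adjusted p = 0.0764), then to Ttl, the tubulin tyrosine ligase (edgeR adjusted p = 0.0764), and Nup107, a nuclear pore subunit (edgeR adjusted p = 0.111). Against anti-JAML they belonged to Nt5dc2, Ccr1 and Ciita (edgeR adjusted p = 0.835 for each). In counts of calls, mitosis genes were 20 of 33 higher under isotype and 8 of 33 after anti-PD-1, replication genes 18 of 34 and 8 of 34, and interferon gamma response genes 24 of 36 and 11 of 36 lower. Over all genes, 8.21% were called higher and 7.12% lower under isotype, and 3.63% and 4.21% after anti-PD-1. The difference between these counts was not tested. Treg identity and NK receptor genes stood at 18 of 20 lower and 12 of 16 higher under isotype, beside 16 of 19 and 10 of 16 after anti-PD-1.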

How the data were processed

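RNA of sorted CD8 and Treg cells was measured by bulk RNA sequencing in 24 libraries, 4 in each of 6 groups, and each library was put in its group by its title. The authors deposited whole-number read counts for 54957 genes, of which 26497 had a count, and a TPM table, scaled for gene length. The tools named, per the submitters' processing notes, are STAR 2.7.3a, fastp 0.20.1, deepTools 3.3.1 and SAMtools, and the build is mm10, with no role or order stated. For the counting tool, strand setting and annotation nothing is given in the sources used, so overlapping and antisense genes could share reads. Of the gene IDs, 54209 (98.6%) matched GENCODE M21.

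Genes were kept by filterByExpr (minimum count 10, minimum total 15), scaled by TMM and tested in edgeR 4.0.16 (R 4.3.3) with robust quasi-likelihood fits over the 8 anti-PD-1 libraries, with Benjamini-Hochberg adjustment over all genes tested and a threshold of 0.05. The isotype and anti-JAML contrasts were fitted in the same way, and interactions over all 24 libraries. The SE of an edgeR log2 fold change is its absolute value divided by the square root of the test's F statistic. It is thus derived from the test and is not a separate estimate. Levels are CPM, computed from the deposited counts with TMM factors over 24 libraries. The deposited TPM served only to compare levels between genes. A fold against a group at 0 uses a floor of 3 counts over the group. Ratios with 1 to 3 counts carry exact 95% intervals, and intervals and floors cover counting error only. The fits were also run on simulated counts with known changes. The simulation gave every gene the same spread and held no deviating library, so it cannot show how the fits handle one.

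The rule for named genes took the targeted and sort-defining genes, the 15 smallest p-values in each direction and any measured members of fixed lists. Of a list's called genes, up to 6 with the smallest p came first, and others could follow. For an interaction with fewer than 3 calls it took the 3 smallest p-values. The members and lists were chosen with earlier results of these data known. Promoter windows came from a RefSeq table and were chosen after the values were seen. Alternatives were DESeq2 1.42.0, limma 3.58.1 (voom), RLE and upper-quartile scaling, no filter, a replicate block, a covariate for genes detected, all 24 libraries in 1 fit, and fits without 1 or several libraries.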

Additional observations from a re-analysis of the deposited data

Results flagged for a closer look

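Within the 2 anti-PD-1 groups, 300 sets of 4 libraries were examined. They were genes with a mean of at least 10 CPM, and cell type marker sums at any level. Each was searched for a library whose gap to the nearest other, as a share of the range, exceeded Dixon's 95% limit for 4 values. That limit marks about 1 in 20 sets by chance, and 20 (6.67%) passed it. Treg library 1 accounts for 7 of the 20, 6 of them high and 1 low.

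Treg library 1 was high in the erythroid markers, 713 CPM against 10.4 to 19.9 CPM in the other 3 Treg libraries, and in the melanoma markers, 90.8 against 25.6 to 35.4 CPM. It was also high in Gzma, which encodes granzyme A, at 43.3 against 1.62 to 7.21 CPM, in Cst7, which encodes the protease inhibitor cystatin F, at 477 against 275 to 307 CPM, and in Serpinb9, which encodes a granzyme B inhibitor, at 139 against 84.5 to 92.4 CPM. In the same library Irf9, a subunit of the interferon-activated complex ISGF3, measured 261 against 194 to 199 CPM, and Mxd1, a MAX partner that opposes MYC, was low at 149 against 265 to 271 CPM.

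Treg library 2 was low in the eotaxin receptor gene Ccr3, at 11.8 against 24.8 to 27.0 CPM, and in the interleukin 7 receptor gene Il7r, at 43.0 against 75.5 to 80.1 CPM. It was high in the interferon-stimulated gene Isg15, at 44.7 against 9.36 to 14.7 CPM, and in Itgae, which encodes the residency integrin CD103, at 33.5 against 14.9 to 17.6 CPM. In Treg library 4 the replication protein gene Rpa2 was low, at 160 against 194 to 196 CPM.

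Among CD8 libraries, library 4 was high in the macrophage lysozyme gene Lyz2, at 106 against 0.578 to 6.21 CPM, high in the actin-capping gene Capg, at 582 against 346 to 381 CPM, low in Gzmk, which encodes granzyme K, at 116 against 198 to 205 CPM, and low in the B and plasma cell markers, at 181 against 260 to 273 CPM. CD8 library 2 was high in the survival gene Bcl2l1, at 24.05 against 9.35 to 11.9 CPM, and in the chemokine receptor gene Ccr2, at 46.1 against 25.8 to 27.4 CPM. Ccr8, a chemokine receptor gene of tumour Treg cells, reached 59.8 CPM in CD8 library 1 against 35.9 to 37.7 CPM, and Cxcr3 reached 154 CPM in CD8 library 3 against 61.7 to 72.4 CPM.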

How the results depend on the processing

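The 442 higher and 513 lower genes became 893 and 1046 in DESeq2, 759 higher with genes detected as a covariate, 807 higher without Treg libraries 1 and 4, and 145 to 1108 higher and 243 to 792 lower with 1 library left out. None of the 955 changed sign in any setting in which it was tested, which was likely beforehand because the settings reuse the same libraries. Of them, 954 were called in DESeq2, 743 with the replicate block (518 higher and 493 lower in all) and 380 to 921 with 1 library left out. Deviations of same-numbered libraries correlated at 0.33, 0.49, -0.32 and 0.09 over 8020 genes, and those of differently numbered ones at -0.548 to 0.476. These values cannot decide whether same-numbered libraries share a mouse. The main fit did not take the numbers as pairs. The 0 genes of the interaction with isotype became 201 in DESeq2, 5 in limma voom, 2 without Treg libraries 1 and 4, and 0 to 12 with 1 library left out. The 0 of the interaction with anti-JAML became 138 in DESeq2 and 2 in limma voom. The isotype contrast itself gave 1325 lower in DESeq2 and 599 higher and 476 lower with the replicate block. After anti-JAML the counts were 330 and 419 in DESeq2 and 28 and 67 with that block. Of the single genes reported, 3 that did not pass turned sign: without Treg libraries 1 and 4, Cd69 stood at 0.215 and Tnfrsf9 at 0.019 on the log2 scale, and with 1 library left out Cd69 ran from -0.506 to 0.115, Lag3 from -1.06 to 0.127 and Tnfrsf9 from -0.155 to 0.032. The cause of these shifts was not tested. Each library holds under 400 cells and groups hold 4, so a gene that did not pass is not shown to be equal.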

Other observations

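MS4A genes encode four-span membrane proteins. Of 7 tested, 2 were higher in CD8 cells and 0 lower, beside 3.63% and 4.21% of all genes tested. Their median log2 fold change was 0.04. Without Treg libraries 1 and 4, 4 of 7 MS4A genes were higher (median 2.06). Without CD8 library 1, 2, 3 or 4 or Treg library 2 or 3, 1 was higher. Ms4a4b measured 2412, 2689, 3195 and 2735 CPM in CD8 libraries and 1070, 646, 402 and 782 CPM in Treg libraries (log2 fold change 1.92 ± 0.28, edgeR adjusted p = 0.00391), and the groups did not overlap. Ms4a4a measured 36.6 to 68.7 CPM against 2.54 to 17.5 CPM. Of 19 genes of S100 proteins, annexins and the actin skeleton, 2 were lower and 0 higher, where 4.21% and 3.63% of all genes tested were. Without Treg library 1, 4 of this list were lower. Ahnak, a large scaffold that binds S100A10 and annexin A2, stood at 31.9 to 53.8 CPM in CD8 and 83.2 to 204 CPM in Treg libraries (log2 fold change -1.69 ± 0.30, edgeR adjusted p = 0.0102), and Capg, which caps actin filaments, at 346 to 582 and 1180 to 1276 CPM (log2 fold change -1.57 ± 0.20, edgeR adjusted p = 0.00188). Of 50 tested variable segments of the T-cell receptor alpha chain 7 were lower and 0 higher, where 4.21% of all genes were lower. The count was 4 without Treg libraries 1 and 4 or without CD8 library 3, 2 without CD8 library 1 or 2 or Treg library 2 or 4, and 1 without CD8 library 4.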
